A study of Homo sapiens with 48 samples.

Results

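The comparison described here is that of 22Rv1 cells kept at 2% O2 with 22Rv1 cells kept in normoxia as their labelled control. It holds 4 arrays of the 48 in the series. Its members are the 2 hypoxia and 2 normoxia replicates whose columns in the deposited probe intensities carry the line, the condition and the 2% level in their names. 22Rv1 is a human prostate carcinoma line derived from the CWR22R xenograft. Exponentially growing cells at 60 to 70% confluence in RPMI-1640 with serum stayed for 24 h at 37 °C in a hypoxia chamber at 2% O2, and the controls in 95% air, and total RNA was hybridized to Illumina bead arrays. The series also holds 22Rv1 at 5, 1, 0.5, 0.2 and 0% O2 and the prostate line PC-3 at all 6 levels, each with 2 replicates and its own normoxia arrays. The labels name the oxygen level as the difference between the 2 groups compared, and no genetic change or added agent. For the controls they give no exposure time or temperature. Nothing says whether replicates were separate cultures. A p-value here sets a difference against the scatter of replicate arrays, estimated over all 48 arrays, and that scatter may be only technical.

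Cells sense oxygen through prolyl hydroxylases that mark the alpha subunits of the hypoxia inducible factors (HIF) for destruction while oxygen is present. When oxygen falls, the alpha subunits are kept, pair with ARNT and bind DNA at the core motif ACGTG near genes of glucose uptake, glycolysis, blood vessel growth, mitophagy and pH control. In prostate tumours low oxygen accompanies aggressive disease.

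The label 22Rv1 was checked against markers of both lines. KLK2 and FOLH1 were detected on 4 of 4 arrays and on none of the 4 PC-3 arrays at 2% O2. HOXB13, TMPRSS2, STEAP2, KRT8 and KRT18 were detected on all 4 arrays of each line and so do not tell the lines apart by detection, and KLK3, the gene of prostate specific antigen, was detected on 0. Of 8 PC-3 markers, all detected on the 4 PC-3 arrays, CAV1, CAV2, TGFBI, IL8 (CXCL8) and S100A2 were detected on none of the 4 arrays of 22Rv1. CD44 and VIM were detected on 4 of them and ANXA1 on 3, at mean log2 levels of 7.70, 8.06 and 5.47 in hypoxia and 6.99, 7.85 and 5.19 in normoxia, against 11.02, 12.26 and 10.01 in PC-3. The summed log2 level of all 8 PC-3 markers was 43.60 and 43.61 on the hypoxia and 41.57 and 43.12 on the normoxia arrays. Of 6 fibroblast markers 1 was detected on any array and of 5 leukocyte markers 3, with summed log2 levels of 26.81 to 27.77 and 22.57 to 24.66. The hypoxia arrays detected 15611 and 15894 probes and the normoxia arrays 14746 and 14839, and over all 48 arrays the number was 13750 to 16494. Whether this difference takes part in the results was not tested. The deposited tables disagree about 2 other arrays, the replicate 2 hypoxia and normoxia arrays of 22Rv1 at 0.2% O2. They do not enter the differences given here but do enter the shared estimate of the spread.

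At 2% O2, 680 of 16438 genes (4.14%) passed the test, limma with a Benjamini-Hochberg adjusted p under 0.05. Of these 469 were higher (2.85%) and 211 lower (1.28%) than in normoxia. The rises were the larger changes: 180 genes were at least 2-fold higher and 12 at least 2-fold lower. The median log2 difference, hypoxia minus normoxia, was 0.90 among called rises, -0.66 among called falls and -0.01 over all genes. When arrays were centred on their medians instead of quantile normalized, the calls were 225 higher and 7 lower. The groups of arrays did not overlap for 47.3% of all genes (23.1% above and 24.2% below normoxia), and for all 680 called genes, which the test fixes in part. The numbers of the replicates pair the arrays, and with the pair as a block 1969 genes were called, 1133 higher and 836 lower. Without hypoxia replicate 1 the count was 175, without hypoxia replicate 2 it was 328, without normoxia replicate 1 it was 446 and without normoxia replicate 2 it was 321. With the exchanged labels at 0.2% O2 the same 4 arrays gave 34 calls, and with the 4 arrays of that level left out of the fit they gave 966. The effect sizes were the same under both labels, since only the spread moved. With the labels used here, the 469 rises had a median log2 difference of 0.98 at 0.2% O2, 1.14 at 0.5% and 1.05 at 0%. Of these rises 466 were above 0 at 0.2% O2. Under the same labels MT3, PPFIA4 and ANKRD37 were detected there on both hypoxia arrays and on no normoxia array. None of the 12 normoxia arrays of 22Rv1 detected these genes. Which labels are right was not tested. In RNA from whole cultures, fewer cells of a kind and less RNA per cell cannot be told apart.

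The largest rises were mostly in genes known to be induced by hypoxia. ADM, which encodes the vasodilator peptide adrenomedullin, stood at normalized log2 intensities of 10.17 and 9.91 at 2% O2 and 5.99 and 6.64 in normoxia. Both hypoxia arrays lay far above both controls, a log2 difference of 3.72 ± 0.36 (SE, 2 arrays against 2) or 13.2-fold (limma adjusted p = 8.75e-09). PFKFB4, an enzyme that makes and removes the glycolytic activator fructose 2,6-bisphosphate, was at 11.31 and 11.18 against 7.45 and 7.72. Its groups were apart as clearly, by 3.66 ± 0.22 or 12.6-fold (limma adjusted p = 1.53e-13). DDIT4, an inhibitor of the growth kinase complex mTORC1, was at 11.75 and 11.53 against 7.99 and 8.40 and rose 10.9-fold (limma adjusted p = 2.29e-09). BHLHB2 (BHLHE40), a transcriptional repressor of the circadian system, was at 9.09 and 8.95 against 5.57 and 5.67. This was a 10.6-fold rise (limma adjusted p = 1.64e-10) with replicates that differed little in either group.

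Several of the top rises started below detection. PPFIA4, a liprin scaffold protein, measured 8.72 and 8.02 at 2% O2 and 4.88 and 4.48 in normoxia, where neither array detected it. It was at least 9.23-fold higher (limma adjusted p = 2.29e-09). MT3, the metallothionein best known from brain, went from 4.50 and 4.67, not well above background, to 8.51 and 7.92, at least 8.29-fold higher (limma adjusted p = 7.94e-15). ANKRD37, a small ankyrin repeat protein, was at 7.94 and 7.62 against 4.62 and 4.88, at least 6.14-fold higher (limma adjusted p = 2.93e-09). DUSP5P (DUSP5P1), a pseudogene, was at 7.46 and 7.03 against 5.11 and 4.45, at least 4.23-fold higher (limma adjusted p = 4.01e-06). All 4 were read on both hypoxia arrays and on no normoxia array. NDUFA4L2 (COXFA4L2), a mitochondrial protein related to a cytochrome oxidase subunit, was at 8.42 and 8.12 against 4.63 and 5.19, with 1 of 2 normoxia arrays detecting it, a log2 difference of 3.36 ± 0.29 (limma adjusted p = 1.12e-09). Among all 469 rises, the normoxia group was detected on both arrays for 352 genes, on 1 for 34 and on none for 83.

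The HIF core motif can be seen in the promoters of some of these genes. Going down the largest rises, the first 6 with a single RefSeq promoter entry (GRCh38.p14) were taken, a number set as the limit. The 250 bases before the start site are shown for the 4 that hold ACGTG or its complement CACGT, which are in capitals. Each is written 5′ to 3′ on the strand of the gene.
BHLHB2 (BHLHE40), chr3:4979187-4979436, plus strand: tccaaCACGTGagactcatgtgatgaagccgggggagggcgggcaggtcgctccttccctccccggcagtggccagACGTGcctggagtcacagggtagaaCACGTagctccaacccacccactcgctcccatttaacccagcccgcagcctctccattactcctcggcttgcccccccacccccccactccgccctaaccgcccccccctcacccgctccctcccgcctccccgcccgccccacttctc
ANKRD37, chr4:185396591-185396840, plus strand: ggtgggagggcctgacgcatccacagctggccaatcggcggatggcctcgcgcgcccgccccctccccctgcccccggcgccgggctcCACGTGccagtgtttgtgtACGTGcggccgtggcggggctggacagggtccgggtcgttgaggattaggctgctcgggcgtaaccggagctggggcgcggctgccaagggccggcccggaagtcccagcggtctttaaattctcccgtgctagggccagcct
PPFIA4, chr1:203026241-203026490, plus strand: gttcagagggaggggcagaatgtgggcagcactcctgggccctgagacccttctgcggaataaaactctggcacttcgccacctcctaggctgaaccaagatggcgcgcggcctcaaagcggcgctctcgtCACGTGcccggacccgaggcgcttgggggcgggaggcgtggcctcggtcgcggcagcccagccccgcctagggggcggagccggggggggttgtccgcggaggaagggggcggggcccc
DDIT4, chr10:72273674-72273923, plus strand: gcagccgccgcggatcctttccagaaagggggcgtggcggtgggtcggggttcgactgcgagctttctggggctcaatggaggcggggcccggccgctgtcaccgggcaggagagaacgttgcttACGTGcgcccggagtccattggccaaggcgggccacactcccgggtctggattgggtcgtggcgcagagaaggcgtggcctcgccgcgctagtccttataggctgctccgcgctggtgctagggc
BHLHB2 holds 3 such stretches, ANKRD37 2, and PPFIA4 and DDIT4 1 each, and CACGTG contains both motifs. The same windows of ADM and PFKFB4 hold neither, which says only that these letters are not in those windows. Over all called rises with an entry, 134 of 469 windows (28.6%, from 311 genes) held the motif on either strand, over the called falls 48 of 207 (23.2%, 150 genes). Over all genes tested it was 3229 of 14697 windows (22.0%) and over all RefSeq promoters given it was 6501 of 35116 (18.5%). These shares are a description of letters in windows and carry no test.

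**Figure D1:**
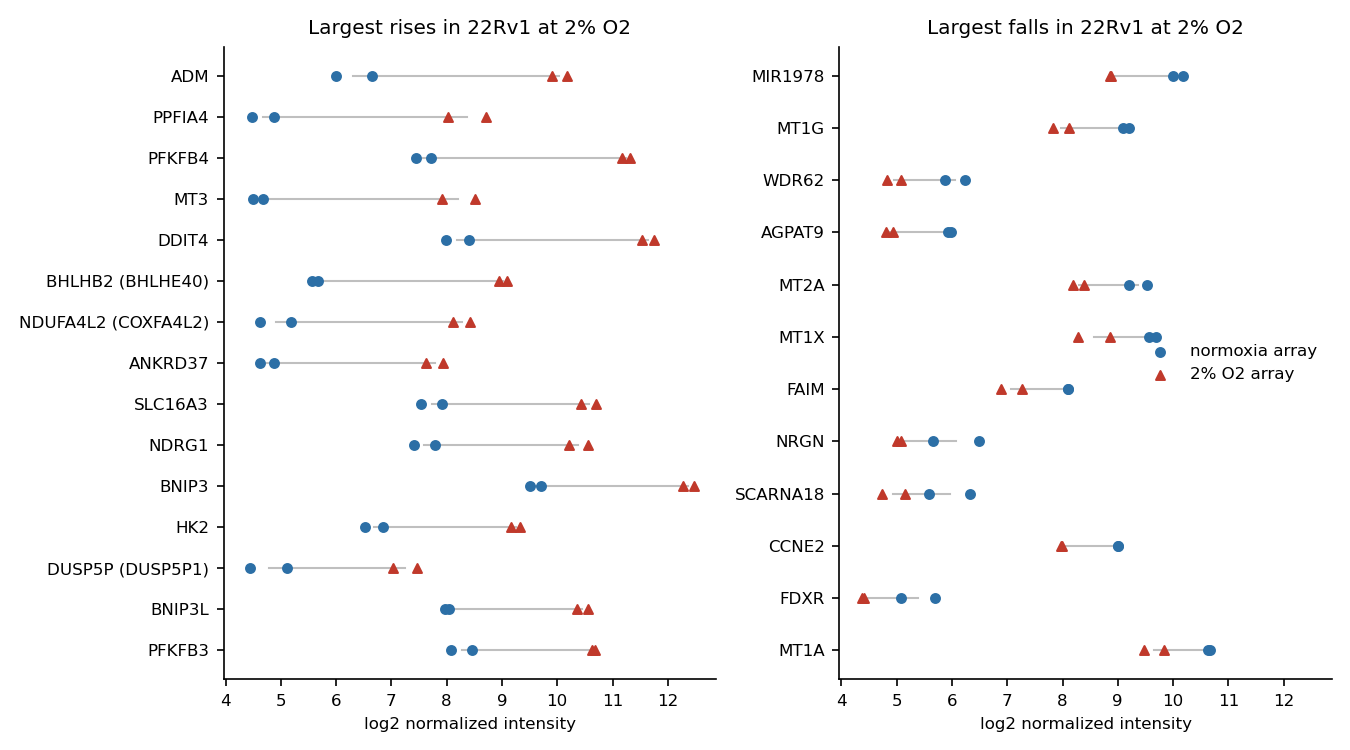
Normalized log2 intensity of 15 of the largest rises and of the 12 largest falls on each of the 4 arrays, with 2 points for 2% O2 and 2 for normoxia per gene. For ADM the hypoxia points lie at 10.17 and 9.91 and the normoxia points at 5.99 and 6.64, while for MT2A the hypoxia points lie at 8.19 and 8.39 below the normoxia points at 9.21 and 9.52.

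Of 20 measured HIF core targets 17 rose and none fell, where 2.85% of all tested genes rose and 1.28% fell. The median log2 difference of the list was 1.98 beside -0.01 over all genes. The mitophagy receptors BNIP3 and BNIP3L mark mitochondria for removal. BNIP3 was at 12.47 and 12.28 against 9.50 and 9.70, a 6.84-fold rise (limma adjusted p = 1.53e-13), and BNIP3L at 10.55 and 10.35 against 7.97 and 8.04, 5.45-fold (limma adjusted p = 2.29e-09). A further probe of BNIP3L gave a log2 difference of 1.53. NDRG1, a stress and differentiation gene, was at 10.55 and 10.21 against 7.78 and 7.41, a 6.89-fold rise (limma adjusted p = 1.54e-06). None of the 3 genes had a control array near the hypoxia arrays. With the exchanged labels at 0.2% O2, 4 of the 17 rises were called, PFKFB4, DDIT4, BNIP3 and LDHA.

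Other core targets rose by less. The glucose transporter gene SLC2A1 was 3.51-fold higher and the ribosome quality control gene ANKZF1 3.47-fold. A further probe of ANKZF1 gave a log2 difference of 0.81. INSIG2, which restrains sterol synthesis, was 2.28-fold higher. ERO1L (ERO1A), an oxidase of the endoplasmic reticulum, rose by 1.15 ± 0.28 on the log2 scale (limma adjusted p = 0.0117) and lost the call without hypoxia replicate 1 (0.242) or normoxia replicate 2 (0.123). The demethylase gene JMJD1A (KDM3A) had uneven arrays, 6.43 and 7.58 against 5.12 and 5.62, and rose by 1.63 ± 0.37 (limma adjusted p = 0.00669). Without hypoxia replicate 2 its adjusted p was 0.221 and without normoxia replicate 1 it was 0.0986. FAM162A, a mitochondrial gene, was at 7.51 and 8.47 against 6.08 and 7.21, so that both groups spread by about the same step between replicates. Its log2 difference of 1.35 ± 0.60 missed the threshold (limma adjusted p = 0.223) and passed with the pair as a block (limma adjusted p = 6.05e-06). The MYC antagonist gene MXI1 also missed the threshold and passed with the block, at 0.77 ± 0.27 (limma adjusted p = 0.109, with the block 0.0404). CA9, a carbonic anhydrase often used as a hypoxia marker, was detected on none of the 4 arrays. EGLN3 and PDK1 did not pass the detection filter.

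Of 16 measured genes of secreted angiogenic and stress factors 8 rose and none fell, with a median log2 difference of 0.82. Among all tested genes 2.85% rose and 1.28% fell. Besides ADM they included VEGFA, the main blood vessel growth factor, at 8.59 and 8.56 against 6.90 and 6.64. This was a 3.49-fold rise (limma adjusted p = 0.000166), and a second probe gave a log2 difference of 1.90. ANGPTL4, an inhibitor of lipoprotein lipase, was at 10.28 and 10.31 against 7.95 and 8.36, 4.41-fold higher on its brightest probe (limma adjusted p = 0.000325), while its other probes differed by 0.61 and 0.63 on the log2 scale. VEGFB rose by 1.23 ± 0.11 (limma adjusted p = 3.02e-09), and the stanniocalcin genes were up too, STC2 by 1.01 and STC1 at least 1.71-fold. FGF11 was also at least 1.71-fold higher. GDF15, a stress hormone, had normoxia arrays of 7.95 and 6.91, wide apart, against 9.08 and 8.78. Its log2 difference of 1.50 ± 0.45 just passed (limma adjusted p = 0.0494), and 3 of the 4 omissions of an array ended the call, with adjusted p up to 0.406. IGFBP3, a carrier of insulin-like growth factors, was at 0.63 ± 0.50 (limma adjusted p = 0.573). The list kept 6 to 8 rises when 1 array was left out.

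Glucose uptake and glycolysis rose along most of the pathway, where 2.85% of all tested genes rose and 1.28% fell. Of 20 measured genes 17 rose and none fell (median log2 difference 0.98), and leaving out 1 array left 12 to 16. After PFKFB4, the largest rise of the list, came HK2, the inducible hexokinase. It was at 9.33 and 9.16 against 6.84 and 6.53, a 5.89-fold rise (limma adjusted p = 5.35e-08), although its other probe differed by 0.84 on the log2 scale. HK1, the constitutive hexokinase, rose 1.34-fold (limma adjusted p = 0.0332). PFKFB3, the partner of PFKFB4 in making fructose 2,6-bisphosphate, was at 10.62 and 10.69 against 8.07 and 8.46, 5.24-fold higher (limma adjusted p = 2.74e-12, other probe 1.29 on the log2 scale). The aldolase genes ALDOC and ALDOA rose 4.35-fold and 2.65-fold, and PGK1, the first step that yields ATP, 3.38-fold. PGAM1 rose 1.71-fold, ENO1 1.52-fold and TPI1 1.39-fold, while ENO2 and PKM2 (PKM) rose 2.41-fold and 2.31-fold. GAPDH at 0.25, PFKM at 0.15 and PFKFB2 at -0.05 on the log2 scale did not pass. With median centring 11 of the 20 rose, and with the exchanged labels 4.

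Downstream of pyruvate, single genes rose rather than the group, 3 of 16 with a median of 0.16, against 2.85% of all tested genes. SLC16A3, which exports lactate, was at 10.70 and 10.43 against 7.53 and 7.92, a 7.17-fold rise (limma adjusted p = 2.74e-12). LDHA, which makes lactate and was among the brightest probes, was at 13.56 and 13.62 against 12.58 and 12.65, a 1.96-fold rise of very even arrays (limma adjusted p = 3.84e-10), and its other probes gave log2 differences of 1.18 and 1.47. PDK4, a brake on pyruvate dehydrogenase, was at 7.11 and 7.25 against 5.72 and 5.49, 2.98-fold higher (limma adjusted p = 0.0187). That call was lost in all 4 omissions of an array. In glycogen metabolism 3 of 15 genes rose, the branching enzyme gene GBE1 by 1.21, the phosphatase regulator gene PPP1R3E by 0.96 and PGM1, which joins glycogen to glycolysis, by 0.88. STBD1, a glycogen-binding protein gene, was at 1.02 ± 0.31 (limma adjusted p = 0.054, with the block 0.00221).

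Of 14 HIF subunit, oxygen sensor and regulator genes 2 rose and 1 fell, against 2.85% and 1.28% of all tested genes, and the median of the list was 0.03. EGLN1, the main HIF prolyl hydroxylase, was at 7.69 and 7.56 against 6.57 and 6.31 and rose 2.27-fold (limma adjusted p = 0.00134). CITED2, which competes with HIF for its coactivators, rose by 0.79, and HSP90AA1, a chaperone of HIF1A, fell by 0.47. HIF1A mRNA differed by -0.45 (limma adjusted p = 0.253). These measure mRNA, whereas HIF alpha subunits are controlled mainly as protein.

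Other oxygen-dependent enzymes rose selectively. Among 13 genes of collagen hydroxylation and crosslinking, P4HA1 rose 4.78-fold, PLOD2 3.44-fold, PLOD1 3.33-fold and P4HA2 2.89-fold, and each of these 4 calls held with any 1 array left out. Other probes of PLOD2 gave log2 differences of 0.83 and 1.45. P4HA1 was at 9.25 and 9.44 against 6.89 and 7.28, and PLOD1 at 11.03 and 10.94 against 9.18 and 9.32. LOX, the lysyl oxidase that crosslinks collagen, was at 1.12 ± 0.35 (limma adjusted p = 0.0617) with no normoxia array detecting it. Of 17 jumonji demethylase genes 3 rose, JMJD1A, JHDM1D (KDM7A) by 1.29 and KDM5B by 1.13, where 2.85% of all tested genes rose. Of the 17 differences 16 were above 0, with a median of 0.07, where 48.4% of all genes were above 0. Only 10 of the 17 genes were detected on all 4 arrays, and 3 on none. Leaving out 1 array left 1 or 2 of the 3 rises. In the MYC network, the antagonists MXD4 and MNT rose by 0.97 and 0.85, 2 of 10 genes, and none to 2 with 1 array left out, 4 with the block. BHLHB2 was the sole call among 15 clock genes (2 with the block) and DDIT4 the sole call among 16 genes of mTORC1 control.

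**Figure D2:**
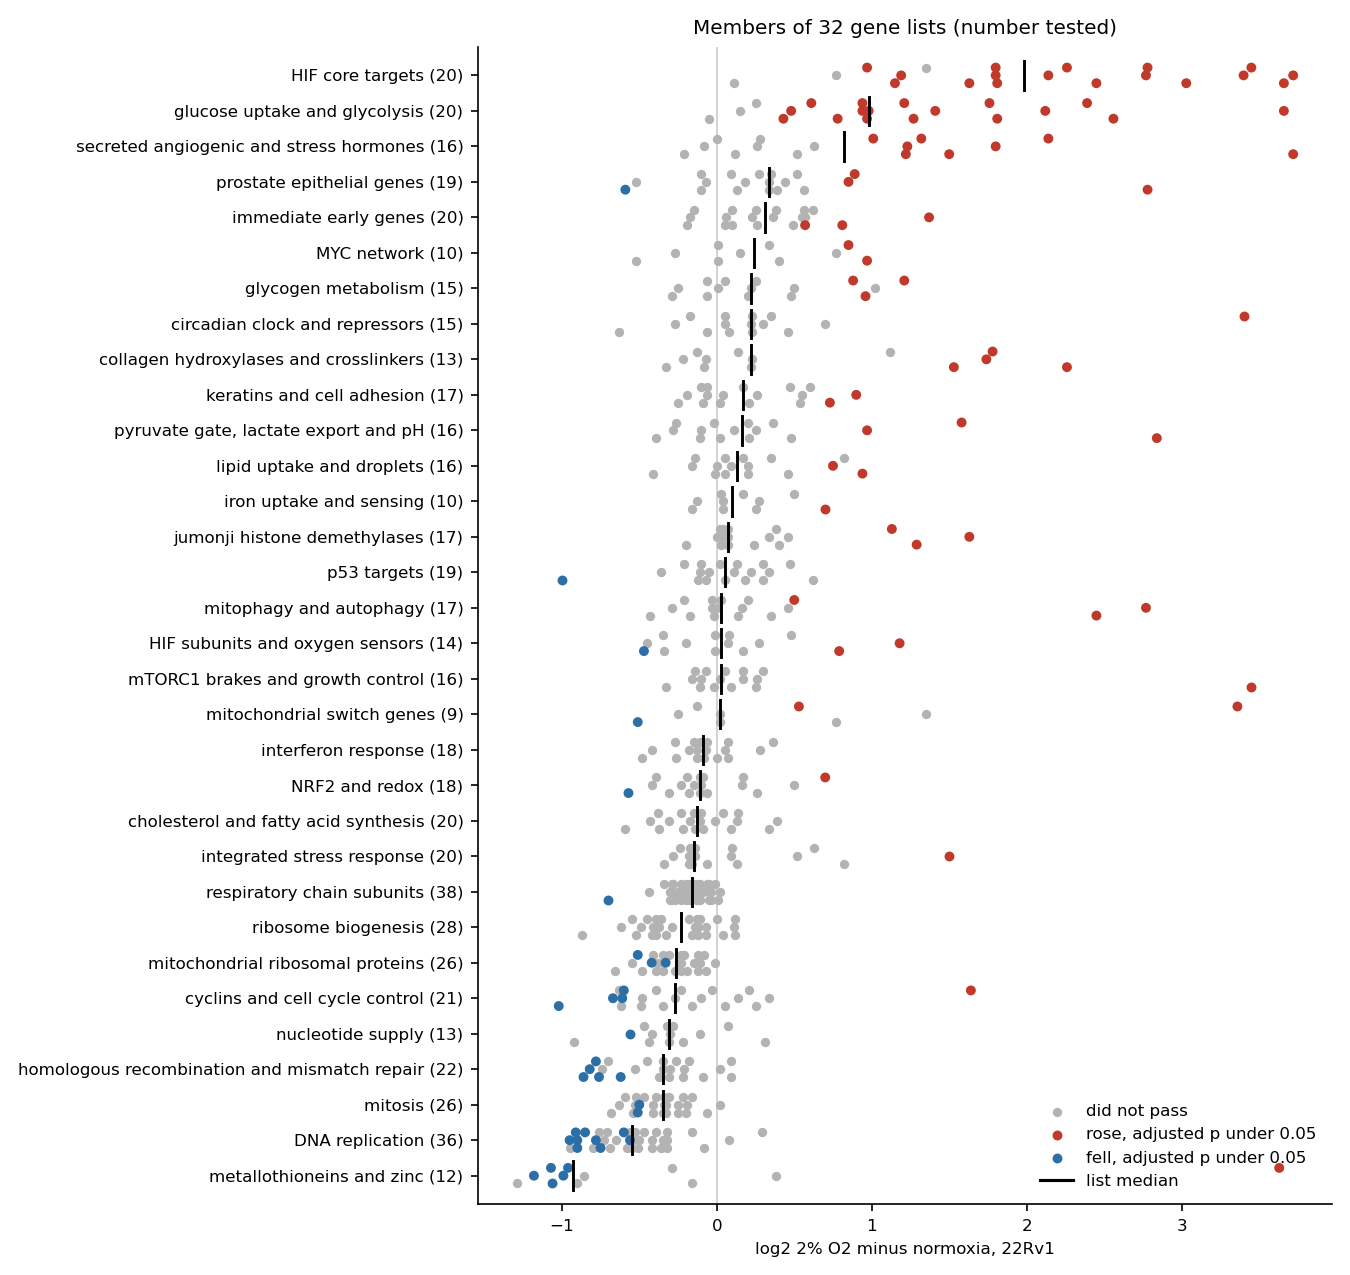
Log2 difference, 2% O2 minus normoxia, of each measured member of 32 gene lists, with a tick at the list's median and colour for the genes that passed the test. The HIF core targets (median 1.98) and glycolysis (0.98) lie to the right of 0. DNA replication (-0.55) and the metallothionein and zinc list (-0.93, with MT3 alone far to the right) lie to the left.

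Of 19 genes of the list of prostate epithelial genes 3 rose and 1 fell (median 0.34), where 2.85% of all tested genes rose and 1.28% fell. Apart from NDRG1 these were KLK2, a kallikrein protease, at 6.33 and 6.24 against 5.32 and 5.48, 1.85-fold higher (limma adjusted p = 0.00345), and the zinc finger gene ZBTB16 at 8.30 and 8.25 against 7.43 and 7.44, 1.80-fold higher (limma adjusted p = 0.0151). A further probe of KLK2 gave a log2 difference of 0.49, and other probes of ZBTB16 gave 0.91 and 0.32. The centromere gene CENPN fell by 0.59. TMPRSS2, a membrane protease gene, at 0.56 (limma adjusted p = 0.336) did not pass. The list's rises numbered 5 with the block and 1 or 2 with 1 array left out. Among 17 keratin and adhesion genes the desmosome gene DSP rose by 0.90 and KRT19 by 0.73, 2 in all. Other probes of DSP gave 0.53 and 0.96. The list had 4 rises with the block, and none without hypoxia replicate 1 or without normoxia replicate 2. Among 20 immediate early genes FOS rose by 1.37, IER3 by 0.81 and JUND by 0.57 (median 0.31), 5 with the block and 0 or 1 with 1 array left out. Of 16 lipid genes C7orf68 (HILPDA), a lipid droplet protein gene, rose by 0.94 and PLIN2 by 0.75. A further probe of PLIN2 gave 0.14. The list had 4 rises with the block and 0 or 1 with 1 array left out.

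The falls were smaller, and the 12 largest included 4 metallothioneins. These short proteins bind zinc and copper and are induced by metal through the factor MTF1. The list tested holds them with MTF1 and the zinc transporter genes SLC30A1 and SLC39A10. Of its 12 measured genes 5 fell and 1 rose, with a median of -0.93, and with the block 8 fell. Among all tested genes 1.28% fell and 2.85% rose without the block. MT2A was at 8.19 and 8.39 at 2% O2 and 9.21 and 9.52 in normoxia. Both hypoxia arrays were the lower ones, by 1.07 ± 0.18 on the log2 scale (limma adjusted p = 0.000202). MT1A was at 9.48 and 9.84 against 10.63 and 10.67 (log2 difference -0.99 ± 0.16, limma adjusted p = 0.000133), and MT1X at 8.28 and 8.86 against 9.56 and 9.70 (-1.06 ± 0.21, limma adjusted p = 0.00181). MT1G was at 7.83 and 8.12 against 9.10 and 9.21 (-1.18 ± 0.33, limma adjusted p = 0.0335), and the zinc exporter gene SLC30A1 fell by 0.96. The groups of these 5 genes did not overlap, with hypoxia below, as was so for 24.2% of all genes. MT2A and MT1A kept their calls whichever array was left out, MT1X lost its call without hypoxia replicate 1 (limma adjusted p = 0.147) and MT1G in all 4 omissions (up to 0.291). MT1H at -1.29 (limma adjusted p = 0.204, with the block 0.000988), MT1E at -0.90 (limma adjusted p = 0.0684) and MT1F at -0.86 (limma adjusted p = 0.142) missed the threshold, and MTF1 was at -0.16. MT3 went the other way. Metallothionein genes are near copies of each other, so their probes may share targets. With median centring 1 of the 5 falls was called, and with the exchanged labels 3, MT2A, MT1A and MT1X.

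Most of the DNA replication genes measured lower at 2% O2. Of 36 genes 9 fell and none rose, 34 of the 36 differences were below 0, and the median was -0.55. Over all genes 1.28% fell and 51.6% were below 0. CHAF1A, a subunit of the chromatin assembly factor that loads histones behind the fork, was at 6.15 and 5.71 against 7.12 and 6.65, a fall by 0.95 ± 0.24 (limma adjusted p = 0.016). The replicative helicase was represented by MCM5 at 7.97 and 8.25 against 8.82 and 9.21, MCM2 at 9.05 and 9.18 against 9.85 and 10.09, and MCM7 at 11.93 and 12.04 against 12.54 and 12.56. All 3 were lower on both hypoxia arrays, by 0.90, 0.85 and 0.56 (limma adjusted p = 0.0137, 0.00775 and 0.00338). The helicase cofactor genes GINS4 and GINS3 fell by 0.91 and 0.75, the polymerase subunit gene POLE2 by 0.90, and the clamp loader genes RFC3 and RFC5 by 0.78 and 0.60. PCNA, the clamp, was at -0.80 ± 0.49 (limma adjusted p = 0.425), and TIPIN, of the fork protection complex, at -0.95 ± 0.33 (limma adjusted p = 0.101, with the block 0.00314). The number of falls was 21 with the block, where 1 gene rose. Without hypoxia replicate 1 it was 1, without hypoxia replicate 2 or normoxia replicate 1 it was 3 and without normoxia replicate 2 it was 4. With median centring or the exchanged labels none passed.

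The medians of other lists of proliferating cells were nearer to 0. Their counts stand beside 1.28% of all tested genes that fell and 2.85% that rose. Of 22 genes of homologous recombination and mismatch repair 5 fell (median -0.35), among them RAD54B, a DNA motor protein gene, by 0.86 and FANCC, of the Fanconi anaemia complex, by 0.82. Of 26 mitosis genes 25 were below 0 (median -0.35), and UBE2C, which feeds the anaphase ubiquitin ligase, and BIRC5, the survivin gene, fell by 0.51 and 0.50. Among 21 cyclins and cell cycle regulators 4 fell and 1 rose (median -0.27). CCNE2, a cyclin of S phase entry, was at 7.99 and 7.98 against 9.00 and 9.01, a fall by 1.02 ± 0.30 (limma adjusted p = 0.0494). CDKN1C, an inhibitor of cyclin-dependent kinases, was at 7.10 and 7.11 against 5.43 and 5.49, a 3.12-fold rise (limma adjusted p = 0.0153). Both CCNE2 and CDKN1C had replicates that nearly coincided here, and both lost their calls in all 4 omissions of an array. Of 13 nucleotide supply genes TYMS, the thymidylate synthase, fell by 0.56, and RRM2, the ribonucleotide reductase subunit, at -0.92 ± 0.32 did not pass (limma adjusted p = 0.102, with the block 0.000961). The blocked model called 10 falls in repair, 13 in mitosis and 5 in nucleotide supply, while leaving out 1 array left 0 or 1 in repair, mitosis and the cyclins.

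Among mitochondrial genes single members rose, while large complexes had medians slightly below 0. NDUFA4L2 and the protease gene LONP1 (0.53) rose and ISCU, a scaffold for iron-sulfur clusters, fell by 0.51 among 9 genes known for mitochondrial switches in hypoxia. Of 38 respiratory chain genes 36 were below 0 with a median of -0.16, and NDUFA6 fell by 0.70. All 26 mitochondrial ribosomal protein genes were below 0 (median -0.26), and MRPL11, MRPS30 and MRPS22 fell by 0.51, 0.42 and 0.33. Other probes of MRPL11 gave -0.33 and -0.25. The blocked model called 9 falls in the respiratory chain and 8 among the ribosomal proteins, and with 1 array left out each list had 0 or 1. Over all genes 51.6% were below 0, 1.28% were called as falls and 2.85% as rises. These medians kept their sign without background correction and with median centring. In mitophagy and autophagy 3 of 17 genes rose, with ULK1, a kinase that starts autophagy, up by 0.50 beside BNIP3 and BNIP3L.

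Over all tested genes 4.14% were called, and several lists had a share near this or no call. In cholesterol and fatty acid synthesis, interferon response and ribosome biogenesis none of 20, 18 and 28 genes passed, with medians of -0.13, -0.09 and -0.23. Their differences were below 0 for 14, 12 and 24 genes, where 51.6% of all genes were below 0. In the same lists 1, 1 and 8 genes had an unadjusted limma p under 0.05, all of them lower. Of all 16438 genes 2870 had such a p, in either direction. In these 3 lists the blocked model called 3 falls and 1 rise, none, and 6 falls. Of the 18 interferon genes 9 were detected on none of the 4 arrays and 6 on all 4, which limits what could be called there. Of 20 integrated stress response genes GDF15 alone rose, and of 19 p53 targets FDXR alone was called, at least 1.27-fold lower, with 1 of 2 normoxia arrays and neither hypoxia array detecting it. The blocked model called 2 rises and 1 fall among the stress genes, and 2 rises among the p53 targets, TNFRSF10B and TP53INP1. The death receptor gene TNFRSF10B was at 0.47, with other probes at 0.31 and -0.12. TP53INP1, a regulator of autophagy and cell death, was at 0.62, with a further probe at 0.91. FTL, the ferritin light chain gene, rose by 0.70 (limma adjusted p = 7.01e-05) among 10 iron and 18 redox genes, and TXNRD1, a thioredoxin reductase, fell by 0.57. TXNRD1 lost its call in all 4 omissions of an array, and FTL kept its call in each. At this number of arrays small changes may be missed. Data were simulated with independent noise and 200 genes changed by the same size. Of genes changed by 0.5 on the log2 scale 7.5% were called, of those changed by 1 73% and of those changed by 2 98%. These shares may differ where more genes change or where paired arrays share noise, as they did here.

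The remaining large falls had no common list. MIR1978, an array symbol for a small RNA, was at 8.85 and 8.87 against 10.00 and 10.18, a fall by 1.23 ± 0.19 (limma adjusted p = 4.93e-05). WDR62, a spindle pole protein gene, was at 4.82 and 5.08 against 5.87 and 6.24, with 1 hypoxia array detecting it (log2 difference -1.11 ± 0.24, limma adjusted p = 0.00437). AGPAT9 was at least 1.89-fold lower (limma adjusted p = 0.0103). FAIM, an inhibitor of apoptosis, fell by 1.03 on its brightest probe (limma adjusted p = 0.0404), and its other probes were at -0.37 and -0.05. NRGN and SCARNA18 each had a log2 difference of -1.02 on dim probes (limma adjusted p = 0.0188 and 0.0391). Their normoxia arrays were at 6.48 and 5.65 and at 5.59 and 6.33. With median centring, AGPAT9, FAIM, NRGN and SCARNA18 did not pass (limma adjusted p = 0.114, 0.221, 0.156 and 0.151). With 1 array left out, their log2 differences ran from -1.16 to -1.01, -1.22 to -0.84, -1.44 to -0.61 and -1.39 to -0.65. The 12 genes named for their fall were those with the largest falls once 3 symbols without annotation were passed over.

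The 2% level can be set beside its neighbours of 5% and 1% O2, each with its own controls. At 5% O2 15 genes were called (0.0913%), 14 higher (0.0852%) and 1 lower (0.00608%), and all 14 rises were also rises at 2%. At 1% 2389 were called (14.5%), 1224 higher (7.45%) and 1165 lower (7.09%). Of the 469 rises at 2%, 403 rose at 1% as well (85.9% of them, 32.9% of the 1224), and of the 211 falls 157 fell at 1% (74.4%, 13.5% of the 1165). The median log2 difference of the 469 was 0.26 at 5%, 0.90 at 2% and 1.04 at 1%, where the choice of genes by the 2% arrays favours that level. ADM stood at 1.11, 3.72 and 4.82 at 5, 2 and 1% O2, PFKFB4 at 2.02, 3.66 and 4.07, and BNIP3 at 2.00, 2.77 and 3.18.

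The difference between the effects at 2% and 5% passed for 13 genes (0.0791%), all with the larger effect at 2%. Among them were ADM, MT3, NDUFA4L2, PPFIA4, MGAT3, PFKFB4, DPYSL4, PFKFB3, PTRF (CAVIN1), SLC16A3, ALDOA and FSCN1. PFKFB3 differed between the levels by 1.53 ± 0.23 (limma adjusted p = 0.00146), ALDOA by 1.07 ± 0.22 (limma adjusted p = 0.0444) and FSCN1, an actin bundling protein gene, by 0.95 ± 0.19 (limma adjusted p = 0.0319). With the block 56 genes passed. Without hypoxia replicates 1 and 2 at 2% in turn 2 and 13 genes passed, and without the normoxia replicates at 2% 5 each time. Without hypoxia replicates 1 and 2 at 5% 28 and 1 passed, and without normoxia replicates 1 and 2 at 5% 8 and 3. With the exchanged labels none passed. The difference between 1% and 2% passed for 0 genes in limma, 3 with the block, and 793 had an unadjusted p under 0.05. This does not show that the levels act alike.

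The lists differed in how their medians ran from 5% to 1% O2. Of the HIF core targets 8 rose at 5%, 17 at 2% and 19 at 1%, with medians of 1.00, 1.98 and 2.62, and of the glycolysis genes 5, 17 and 17, with medians of 0.29, 0.98 and 1.36. The DNA replication list had 0 falls at 5%, 9 at 2% and 33 at 1%, with medians of -0.17, -0.55 and -1.20. The medians of the metallothionein and zinc list were -0.47, -0.93 and -0.89, and at 0% O2 the median was 0.53. Of the 36 replication genes and of the 12 metallothionein and zinc genes, 0 and 1 (MT3) passed the test of the difference between 2% and 5%.

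**Figure D3:**
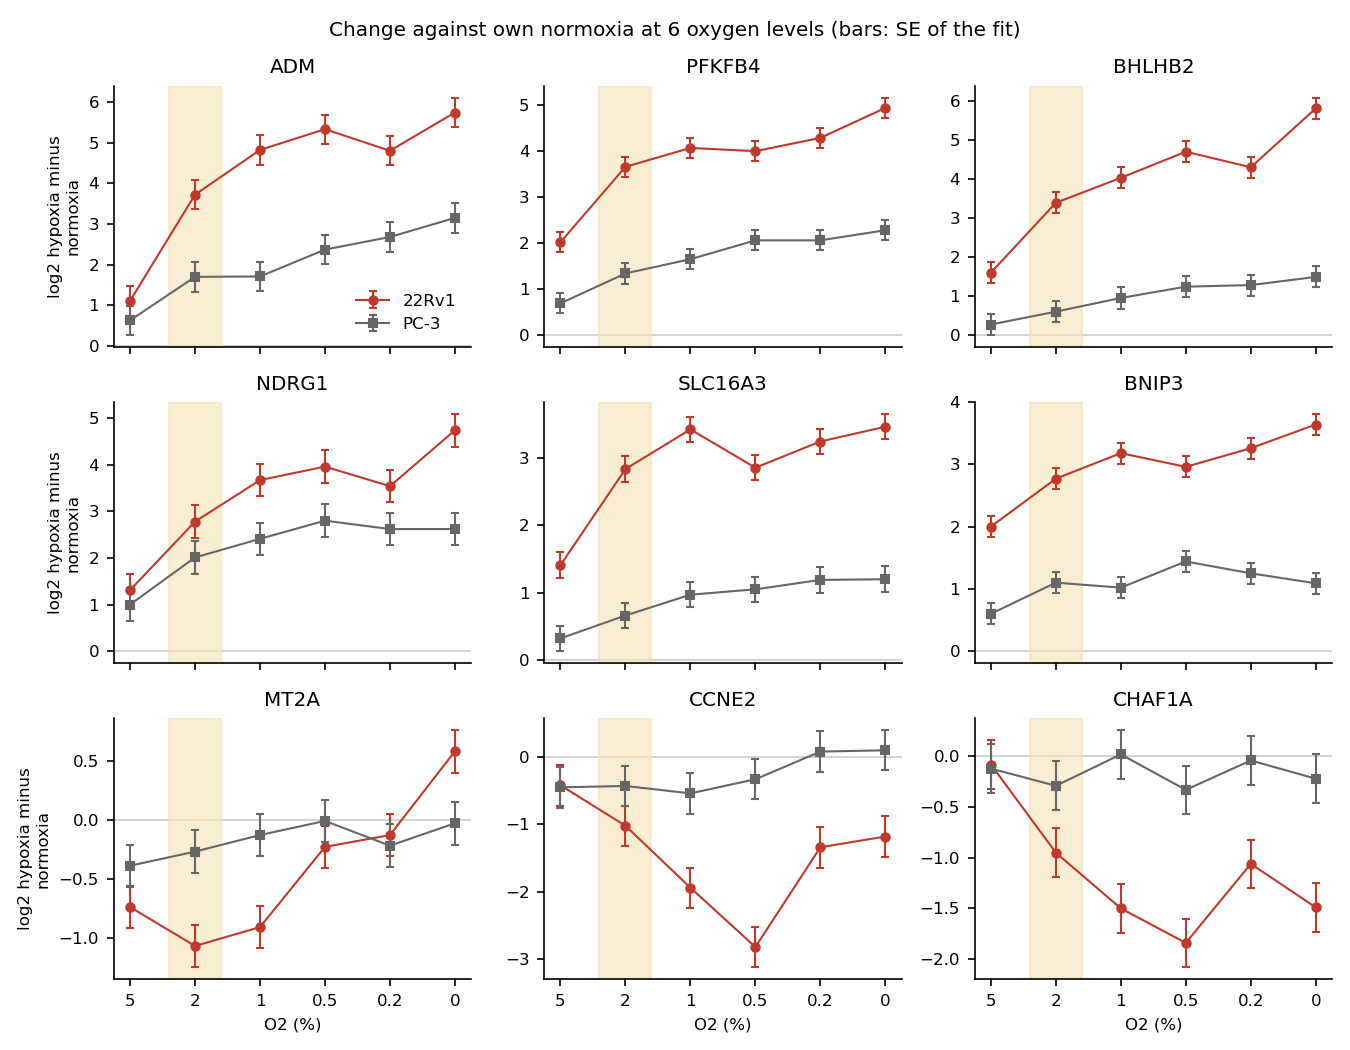
Log2 difference from own normoxia (± SE, 2 arrays against 2) of 9 genes at 5, 2, 1, 0.5, 0.2 and 0% O2 in 22Rv1 and PC-3, with the 2% level shaded. ADM in 22Rv1 lies at 1.11, 3.72 and 4.82 at the first 3 levels, and MT2A and CHAF1A lie below 0 at 2%.

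**Figure D4:**
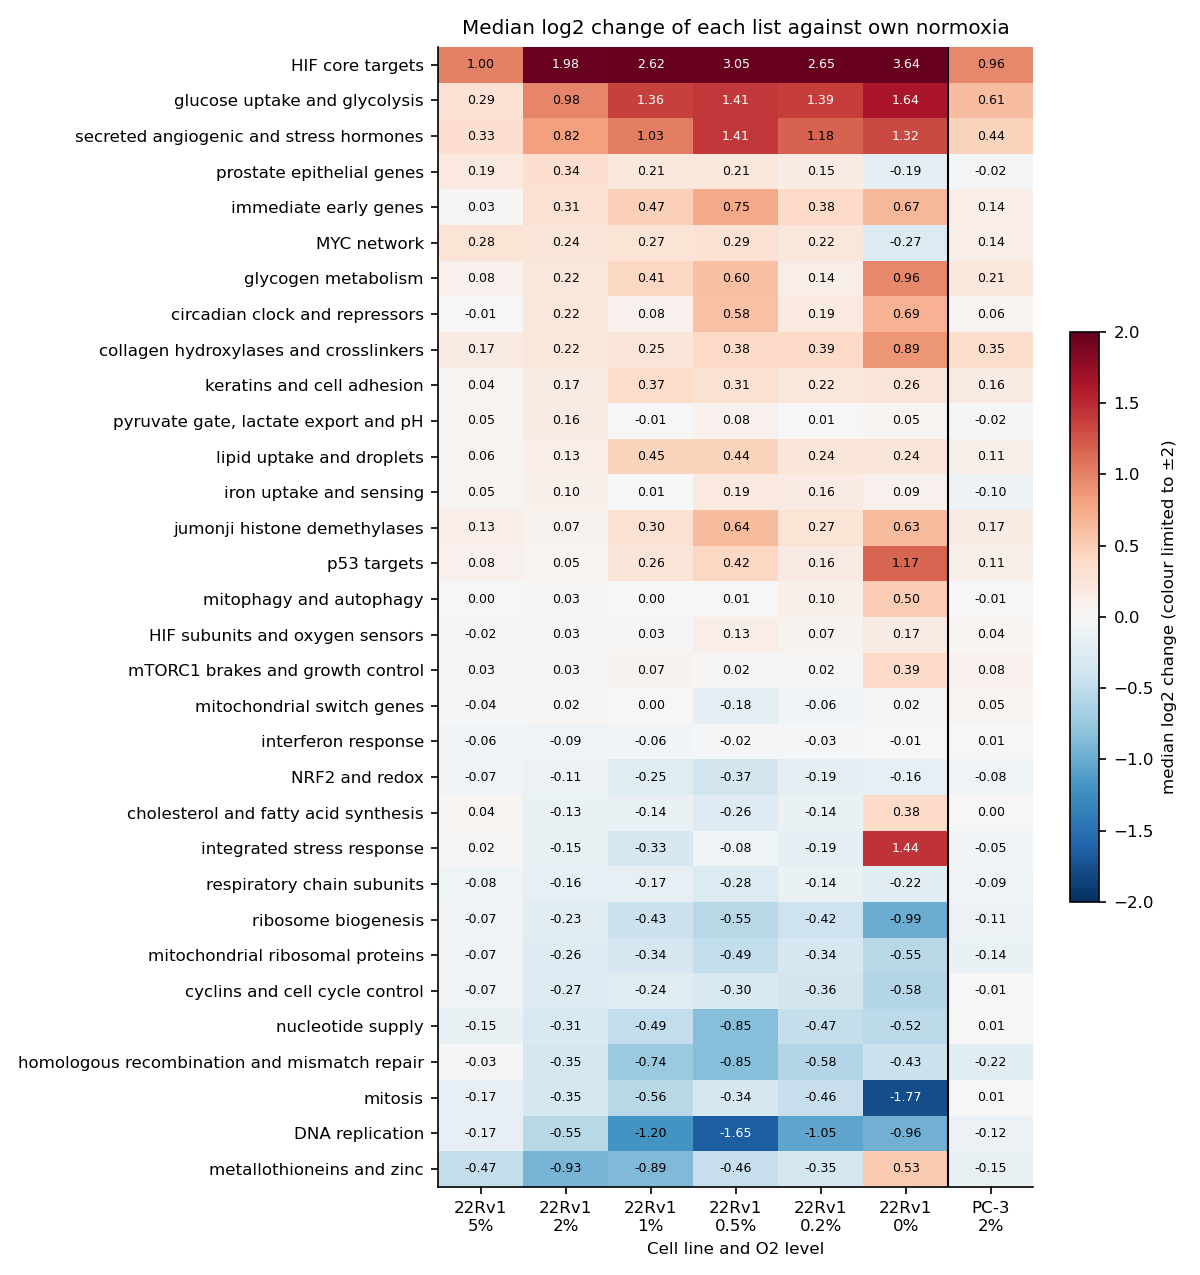
Median log2 difference of each gene list at the 6 oxygen levels in 22Rv1 and at 2% O2 in PC-3, as colour. The HIF core targets read 1.00, 1.98 and 2.62 at 5, 2 and 1% O2 in 22Rv1 and 0.96 in PC-3 at 2%, and DNA replication reads -0.17, -0.55 and -1.20 and -0.12.

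In PC-3, a prostate line derived from a bone metastasis, 2% O2 gave 48 called genes (0.292%), all higher. Of these 31 were among the 469 rises of 22Rv1, 64.6% of the PC-3 list and 6.61% of the 22Rv1 list. Shared rises included ANGPTL4 at 2.14 in 22Rv1 and 2.96 in PC-3, NDRG1 at 2.78 and 2.01, SLC2A1 at 1.81 and 1.41 and STC2 at 1.01 and 1.19. No gene of all those tested was called lower in PC-3, so the 211 falls of 22Rv1 could share none, and 166 of them (78.7%) had a negative difference there (median -0.13). The difference itself passed for 46 genes (0.28%), 39 with the higher effect in 22Rv1 (0.237%) and 7 with the lower (0.0426%). With the block 190 passed, with median centring 10, all higher, and with the exchanged labels none. Without 22Rv1 hypoxia replicates 1 and 2 in turn 14 and 29 passed, and without the normoxia replicates 36 and 33. Without PC-3 hypoxia replicates 1 and 2 in turn 24 and 20 passed, and without the normoxia replicates 15 and 16.

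Among the HIF core targets the lines differed for 6 of 20, all higher in 22Rv1. These were PFKFB4, BHLHB2, ANKRD37, BNIP3, BNIP3L and LDHA. BHLHB2 was at 3.40 in 22Rv1 and 0.61 in PC-3, a difference of 2.79 ± 0.38 (limma adjusted p = 6.45e-05), and BNIP3 at 2.77 and 1.10, a difference of 1.67 ± 0.24 (limma adjusted p = 0.000106). LDHA was at 0.97 and 0.13, a difference of 0.84 ± 0.11 (limma adjusted p = 6e-05). SLC16A3, VEGFB, NDUFA4L2 and MT3 are outside that list. SLC16A3 was at 2.84 and 0.66, a difference of 2.18 ± 0.27 (limma adjusted p = 3.13e-05). VEGFB was at 1.23 and 0.16 (difference 1.07 ± 0.16, limma adjusted p = 0.000317). NDUFA4L2 and MT3 were detected on no PC-3 array at this level, and their log2 differences there were 0.13 and -0.05. The same lack of detection held for others of the 39 genes higher in 22Rv1, such as FGF9, WNT3A, PTRF, MGAT3 and KLK2. For such genes the test cannot tell a weaker response from a gene not expressed in PC-3.

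Of the 7 genes with the lower effect in 22Rv1, some were called as rises in PC-3 and others as falls in 22Rv1. ITPR1, a calcium channel of the endoplasmic reticulum, was at 0.05 in 22Rv1, where no array of the level detected it, and at 1.53 in PC-3. OSBP2, an oxysterol-binding protein gene, was at -0.16 and 1.31, and SLCO4A1, an organic anion transporter gene, at -0.04 and 1.40. MT1X was at -1.06 in 22Rv1 and 0.30 in PC-3, and the cell cycle repressor gene E2F7 at -0.60 and 0.49. Of the 36 DNA replication genes none passed the test of the line difference. The medians of that list were -0.55 in 22Rv1 and -0.12 in PC-3.

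**Figure D5:**
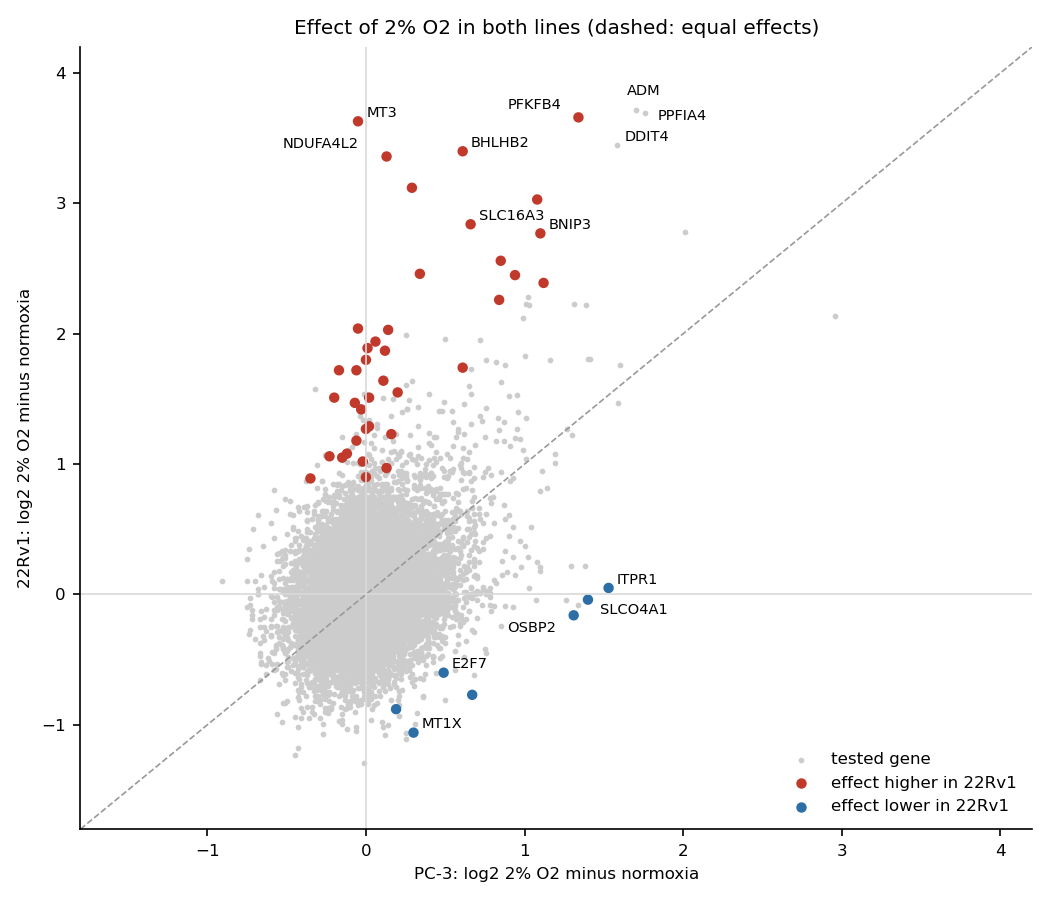
Log2 difference at 2% O2 in PC-3 against that in 22Rv1, one point per gene, with the 39 genes whose effect was higher in 22Rv1 and the 7 whose effect was lower in colour. BHLHB2 lies at 3.40 in 22Rv1 and 0.61 in PC-3, and ITPR1 at 0.05 and 1.53.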

How the data were processed

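For 48 arrays the authors deposited, per the file headers, a mean bead intensity and a detection p-value for each of 47323 probes (the submitters' processing notes name BeadStudio 3.1.3.0). A further deposited set of intensities, of unstated normalization, served as an alternative. neqc of limma 3.58.1 (offset 16, R 4.3.3 with the package data.table in version 1.17.8) corrected background, quantile normalized and took log2. Probes with detection p under 0.01 on at least 2 arrays were kept, and the brightest probe stood for each of 16438 symbols (11119 current, 2030 through a synonym). Dim probes are compressed toward background, which understates folds, and precision is limited by the small number of arrays. Means of 24 groups were fitted in limma with moderated, trended variances (24 residual degrees of freedom, 32.3 in all) and Benjamini-Hochberg adjustment over all genes at 0.05. Where no array of the lower group detected a gene, the fold is taken against the detection floor and given as at least that value. Column letters A and B were read as replicates 1 and 2.

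Deviations from group means correlated between same-numbered arrays at every level (0.180 to 0.447 in 22Rv1, 0.252 at 2%), so the replicate number was also used as a block. Alternatives changed weights, background, scaling, filter, probe choice, variance trend, arrays, controls and labels, or left out 1 array. The comparison, the 32 lists and the tests were chosen with earlier results of these data known. Named are the 16 largest rises and 12 largest falls with 1 sign in both pairs, passing over unannotated symbols, the HIF core targets, leading members of each list, leading differences between levels and lines, and further members picked after their values were seen, and some genes under these rules are not reported here. The model was tested on simulated data with 200 changed genes. Plots used Python 3.11.15 with pandas 2.3.3 and matplotlib 3.10.9. Promoters came from RefSeq.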

Additional observations from a re-analysis of the deposited data

Results flagged for a closer look

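Within 22Rv1, the effect of low oxygen differed between 2% and 5% O2 by the test of the difference for 13 genes. The fitted log2 differences of the effects were 2.62 for ADM, 2.56 for MT3, 2.38 for NDUFA4L2, 2.35 for PPFIA4 and 1.93 for MGAT3, a glycosyltransferase gene. MT3, PPFIA4 and MGAT3 were not detected in the normoxia arrays of the 2% level, so these sizes are fitted values and no bound.

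At 2% O2 the effect differed between the lines, 22Rv1 minus PC-3, for 46 genes by the test of the difference. The fitted log2 differences were 3.67 for MT3, 3.23 for NDUFA4L2, 2.79 for BHLHB2 and 2.32 for PFKFB4. They were -1.48 for ITPR1, -1.47 for OSBP2, -1.44 for SLCO4A1, -1.36 for MT1X and -1.09 for E2F7. No PC-3 array at 2% O2 detected MT3 or NDUFA4L2, and no 22Rv1 array of that level detected ITPR1. Groups of 2 arrays are too small for a test of single samples that stand apart.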

How the results depend on the processing

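No named gene past the threshold reversed its direction under any alternative that was run. Of 72 named genes past the threshold, 32 kept the call whichever of the 4 arrays was left out and 15 lost it in all 4 cases. With the exchanged labels 12 were called. The replicate block, which pairs the arrays, called 26 more named genes.

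The count of 680 became 1969 with the replicate block, 232 with median centring, 28 in the other deposited table, 263 with the 22Rv1 arrays only, 237 with the 4 arrays alone, 1951 with pooled controls and 34 with the exchanged labels, and leaving out 1 array gave 175 to 446. The other table with the labels of the intensity table, an alternative chosen after seeing the data, gave 683. The count of 13 for 2% minus 5% became 56 with the block, 23 with array weights, 0 in the other table and with the exchanged labels, 1 with 22Rv1 only, 142 with pooled controls, 5 with no variance trend, 27 without the 0.2% arrays and 1 to 28 with 1 array left out. The count of 0 for 1% minus 2% became 3 with the block and with no trend, 9 with weights, 2 with no background correction and in the other table under the intensity labels, 85 with pooled controls, 12 without the 0.2% arrays and 0 to 2 with 1 array left out. The count of 46 between the lines became 190 with the block and with pooled controls, 83 with weights, 10 with median centring, 0 in the other table and with the exchanged labels, 26 with no filter, 71 without the 0.2% arrays and 14 to 36 with 1 array left out. Fewer samples or a larger shared spread come with the construction of the smaller sets and of the exchanged labels, and the cause of the other moves was not tested. Median centring moved the median of all genes by 0.25 in the 2% minus 5% and by -0.17 in the 1% minus 2% difference. Of the probes 29.1 to 34.9% were above background on an array, which limits what can be seen in dim genes.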

Other observations

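Some further genes moved at 2% O2 outside the lists, and those in this section were chosen after their values were seen. The kallikrein genes KLK15 and KLK1 rose by 1.06 (limma adjusted p = 0.000425) and 1.02 (limma adjusted p = 3.14e-05). Both had a higher effect than in PC-3, where no array at 2% O2 detected either gene. Of signalling genes, FGF9 rose by 1.94, WNT3A by 1.55 and SPRY1, an inhibitor of growth factor signalling, by 1.72. QSOX1, a secreted oxidase that forms disulfides, rose by 1.87 and RAB31, a vesicle traffic GTPase gene, by 2.04. Among the falls, the centromere genes CENPK, CENPL and CENPM fell by 0.87, 0.81 and 0.75 on the log2 scale.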
